A study of Rattus norvegicus with 9 samples.

Results

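Transcripts of the 9 genes that make up the core of oxygen sensing were examined in the superior mesenteric artery (SMA), the vessel that supplies most of the small intestine. The genes were chosen by symbol: the HIF alpha subunits Hif1a, Epas1 and Hif3a, their partner Arnt, the prolyl hydroxylases Egln1, Egln2 and Egln3, the asparagine hydroxylase Hif1an and Vhl. All 9 of 9 symbols were found among the 37203 gene symbols of the table, and all 9 passed the filter on low counts that left 15482 genes. The tissue came from 8-week-old Sprague-Dawley rats, and its 9 libraries form 3 groups of equal size, namely 3 libraries from normal animals, 3 taken 1 h into ischemia and 3 taken 4 h into it. Ischemia was produced by bleeding from a femoral artery under pentobarbital, so it was a loss of blood to the whole animal and not a tie on this artery, and no sham operation is named for the normal rats. The series description gives separate rats for each group, and the artery was taken at the end of the experiment. The p-values measure only the spread between these libraries.

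Cells read oxygen through the stability of HIF. When oxygen is present, the prolyl hydroxylases mark the alpha subunit, Vhl binds the mark as the recognition part of a ubiquitin ligase, and the subunit is destroyed, while Hif1an blocks its contact with coactivators. When oxygen falls, the alpha subunit persists, pairs with Arnt and switches on genes of glucose use, vessel tone and vessel growth. Most of this control acts on protein, and these libraries hold transcripts only, so the values below describe only how much transcript of each part was present.

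HIF recognises a short core, ACGTG or GCGTG, and this core was searched on both strands in windows from 250 bases before to 50 bases after the annotated starts in RefSeq (assembly GRCr8). The 9 genes had 10 windows, since Hif3a has 2 starts there, and 4 of the 10 (40%) held a core, against 41.6% of all 33469 windows. Cores lay in the windows of Hif1a, Arnt and Egln1 and at the first start of Hif3a. The first core of Hif1a, 229 bases before its start, is a palindrome that reads as a core on either strand, and a further one lay 164 bases before it. Egln1 had one 56 bases before the start and another 3 bases into the transcript. The windows of Epas1, Egln2, Egln3, Hif1an, Vhl and the second start of Hif3a held none of these letters. Among 40 genes known to be induced through HIF, 34 had windows, and 28 of their 39 windows (71.8%) held a core. Base composition was not matched in these shares. A match of letters is a description and was not linked to binding.

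The 250 bases upstream of the start are shown 5′ to 3′ on the gene's strand for 2 alpha subunits and for the 2 hydroxylases whose extreme values fell in the same libraries, with the cores in capitals. The Hif3a sequence is that of its first start.
Hif1a, chr6:98359648-98359897, plus strand: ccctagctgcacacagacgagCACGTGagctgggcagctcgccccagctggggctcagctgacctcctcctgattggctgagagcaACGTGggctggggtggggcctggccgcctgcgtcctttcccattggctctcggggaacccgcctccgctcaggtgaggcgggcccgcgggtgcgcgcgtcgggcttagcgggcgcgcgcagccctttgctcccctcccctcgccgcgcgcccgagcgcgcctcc
Hif3a, chr1:86877839-86878088, minus strand: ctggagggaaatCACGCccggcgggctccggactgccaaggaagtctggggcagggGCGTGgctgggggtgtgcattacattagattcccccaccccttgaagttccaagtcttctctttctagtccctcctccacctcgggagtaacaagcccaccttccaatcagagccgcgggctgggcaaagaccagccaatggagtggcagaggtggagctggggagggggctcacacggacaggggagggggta
Egln1, chr19:69804682-69804931, minus strand: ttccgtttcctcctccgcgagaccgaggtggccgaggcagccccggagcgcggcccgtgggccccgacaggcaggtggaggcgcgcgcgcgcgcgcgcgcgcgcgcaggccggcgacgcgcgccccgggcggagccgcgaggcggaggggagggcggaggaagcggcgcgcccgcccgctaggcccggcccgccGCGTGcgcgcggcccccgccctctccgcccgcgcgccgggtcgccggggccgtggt
Egln3, chr6:77411016-77411265, minus strand: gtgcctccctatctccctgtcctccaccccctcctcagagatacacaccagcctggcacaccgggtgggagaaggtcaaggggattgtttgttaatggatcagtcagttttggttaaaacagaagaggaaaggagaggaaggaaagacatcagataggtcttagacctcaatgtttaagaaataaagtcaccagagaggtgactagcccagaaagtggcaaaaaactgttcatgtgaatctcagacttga
Egln1 lies in a window of 84.7% G and C, whereas that of Egln3 has 44.7%, the lowest of the 10.

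**Figure D1:**
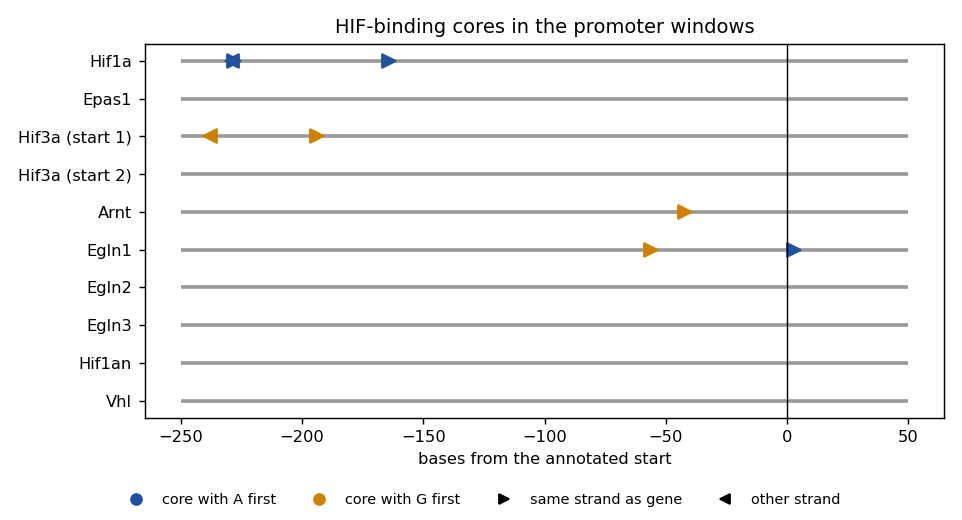
Positions of the cores ACGTG and GCGTG in the promoter windows of the 9 genes, in bases from the annotated start, with arrowheads pointing along the strand on which the core reads. Markers lie in 4 of the 10 windows, and the adjoining pair at the left of Hif1a is the palindrome.

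None of the 9 genes was called changed at 1 h or 4 h of ischemia. A call required an adjusted p under 0.05 in edgeR's quasi-likelihood test and a fold change over 1.5, and over all genes 0.0581% were called at 1 h and 0.0904% at 4 h. At an unadjusted p under 0.05 there were also 0 of 9 genes in either comparison, while 16.7% of all genes reached it at 1 h and 12.4% at 4 h. By DESeq2 0 of 9 were called, against 4.53% of all genes at 1 h and 3.94% at 4 h, and 1, Hif3a, had an unadjusted p under 0.05 at each time, against 21.3% and 15.4% of all genes. The median log2 fold change of the 9 genes was 0.15 at 1 h and 0.076 at 4 h, beside -0.0076 and 0.027 over all genes tested. Both comparisons share the normal libraries, so they are not independent of each other. Values are given as CPM, counts relative to library sizes scaled by TMM, and 1 CPM stood for 12.1 to 17.9 counts. Counts of these genes ran from 62 to 8969 per library. Transcript lengths were not used here, so levels are compared between libraries for the same gene and not between genes.

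**Figure D2:**
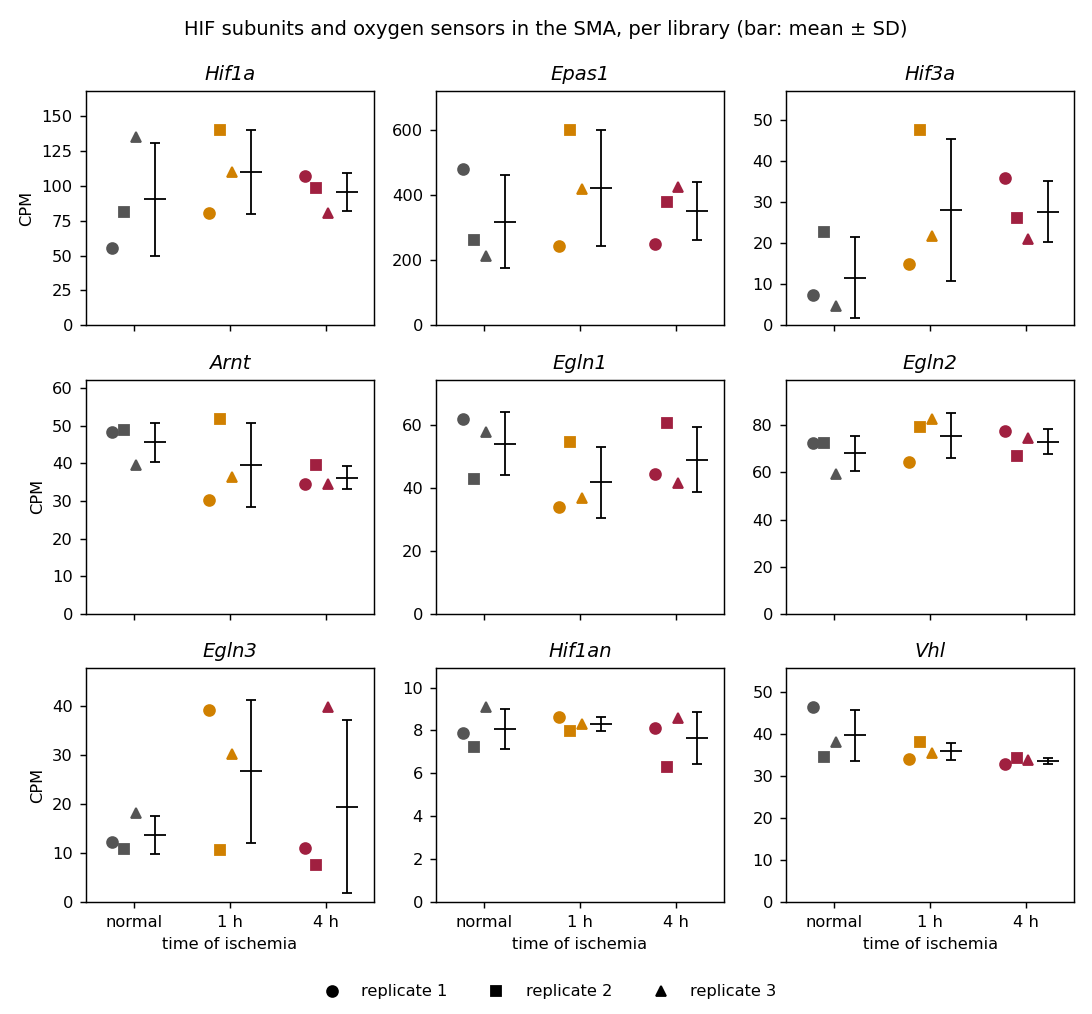
CPM of the 9 genes in each library by group, with symbols for the replicates and bars for the mean ± SD of 3 libraries. The groups overlap in every panel, apart from Vhl at 4 h, where the 3 libraries lie just below the 3 normal ones.

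The alpha subunits were taken first. Hif1a, the subunit present in most cells, was at 55.2, 81.5 and 134.7 CPM in normal replicates 1 to 3, at 80.2, 139.9 and 109.7 CPM at 1 h, and at 107.2, 98.7 and 80.3 CPM at 4 h. The normal rats alone covered nearly the whole range, and the libraries at both times fell inside or just beyond it. Group means were 90.5 ± 40.5, 109.9 ± 29.9 and 95.4 ± 13.7 CPM (SD, n = 3 each). The fold change at 1 h was 1.22, with a 95% interval from 0.708 to 2.08 (adjusted p = 0.667), and at 4 h it was 1.05, from 0.615 to 1.81 (adjusted p = 0.947). A rise of Hif1a transcript of 1.5-fold lies inside both intervals. Hif1a is among the genes the study itself picked out, so its inclusion was not independent of these samples.

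Epas1 codes for HIF-2 alpha, which is prominent in endothelium. It was at 482, 261 and 212 CPM in normal rats, 245, 600 and 420 CPM at 1 h, and 250.2, 379 and 424 CPM at 4 h. High and low libraries occurred in every group, with the highest in replicate 2 at 1 h and the lowest in normal replicate 3. The fold change was 1.32 at 1 h (95% interval 0.675 to 2.60, adjusted p = 0.614) and 1.10 at 4 h (0.563 to 2.16, adjusted p = 0.914). Endothelial transcripts also varied, with Pecam1, an adhesion molecule of endothelium, at 153 to 293 CPM in normal rats, 112 to 247 CPM at 1 h and 121 to 232 CPM at 4 h, and the 12 endothelial markers summed to 1030 to 1845, 811 to 1351 and 847 to 1168 CPM. In bulk tissue, fewer cells of a type and less RNA per cell cannot be told apart, and the part of endothelium in the Epas1 values was not tested.

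Hif3a, whose products include forms that restrain the other alpha subunits, had the largest fold changes of the 9 genes and also the widest spread. It was at 7.5, 22.8 and 4.58 CPM in normal rats, 14.9, 47.6 and 21.7 CPM at 1 h, and 35.9, 26.3 and 21.1 CPM at 4 h. Normal replicates 1 and 3 were below all 6 ischemic libraries, whereas normal replicate 2 lay above 2 libraries at 1 h and 1 at 4 h. Means were 11.6 ± 9.81, 28.1 ± 17.3 and 27.7 ± 7.52 CPM (SD, n = 3 each). The log2 fold change was 1.27 at 1 h (SE 0.64, adjusted p = 0.326) and 1.25 at 4 h (SE 0.64, adjusted p = 0.468), with 95% intervals of the fold from 0.874 to 6.65 and from 0.864 to 6.57. The unadjusted p was 0.081 and 0.084 in these edgeR fits. Single libraries decided the size. Without normal replicate 2 the log2 fold change was 2.22 at both times (adjusted p = 0.429 and 0.304), without replicate 2 at 1 h it was 0.65 at 1 h, and without normal replicate 3 it was 0.89 at 1 h and 0.87 at 4 h. Over its 9 libraries Hif3a differed 10.4-fold between the lowest and the highest.

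Arnt, the stable partner of all alpha subunits, was at 48.3, 49.0 and 39.5 CPM in normal rats, 30.3, 51.9 and 36.5 CPM at 1 h, and 34.6, 39.6 and 34.4 CPM at 4 h. It was a little lower on average at 4 h, but replicate 2 at 4 h exceeded normal replicate 3. Fold changes were 0.868 at 1 h (95% interval 0.613 to 1.23, adjusted p = 0.621) and 0.794 at 4 h (0.560 to 1.13, adjusted p = 0.565). A rise of Arnt of 1.5-fold lies outside both intervals, whereas a fall of 1.5-fold lies inside both.

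Among the hydroxylases, Egln2 was the steadiest. Egln2 codes for PHD1, and it was at 72.6, 72.3 and 59.4 CPM in normal rats, 64.6, 79.4 and 82.8 CPM at 1 h, and 77.7, 67.1 and 74.5 CPM at 4 h. The groups lay on top of one another. The fold change was 1.11 at 1 h, with a 95% interval from 0.858 to 1.44, and 1.07 at 4 h, from 0.829 to 1.39, so that a change of 1.5-fold in either direction lies outside both (adjusted p = 0.623 and 0.822).

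Egln1 codes for PHD2, the main hydroxylase of HIF-1 alpha in most cells. It was at 62.0, 42.7 and 57.7 CPM in normal rats, 33.8, 54.5 and 36.9 CPM at 1 h, and 44.4, 60.8 and 41.7 CPM at 4 h. Replicates 1 and 3 at 1 h and replicate 3 at 4 h were below all normal libraries, and the other ischemic libraries were inside the normal range. The fold change was 0.771 at 1 h (95% interval 0.516 to 1.15, adjusted p = 0.427) and 0.904 at 4 h (0.605 to 1.35, adjusted p = 0.839).

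Egln3 codes for PHD3, which is itself induced by hypoxia in many cells and was first described in rat smooth muscle under the name SM-20. It was at 12.3, 10.9 and 18.2 CPM in normal rats, 39.1, 10.7 and 30.3 CPM at 1 h, and 11.2, 7.63 and 39.8 CPM at 4 h. The values fell apart into 3 high libraries, replicates 1 and 3 at 1 h and replicate 3 at 4 h, and 6 libraries at or below 18.2 CPM that came from all groups. Means were 13.8 ± 3.87, 26.7 ± 14.6 and 19.5 ± 17.7 CPM (SD, n = 3 each). The log2 fold change was 0.96 at 1 h (SE 0.67, adjusted p = 0.444) and 0.51 at 4 h (SE 0.67, adjusted p = 0.779). At 4 h the direction rested on replicate 3, without which the log2 fold change was -0.55.

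**Figure D3:**
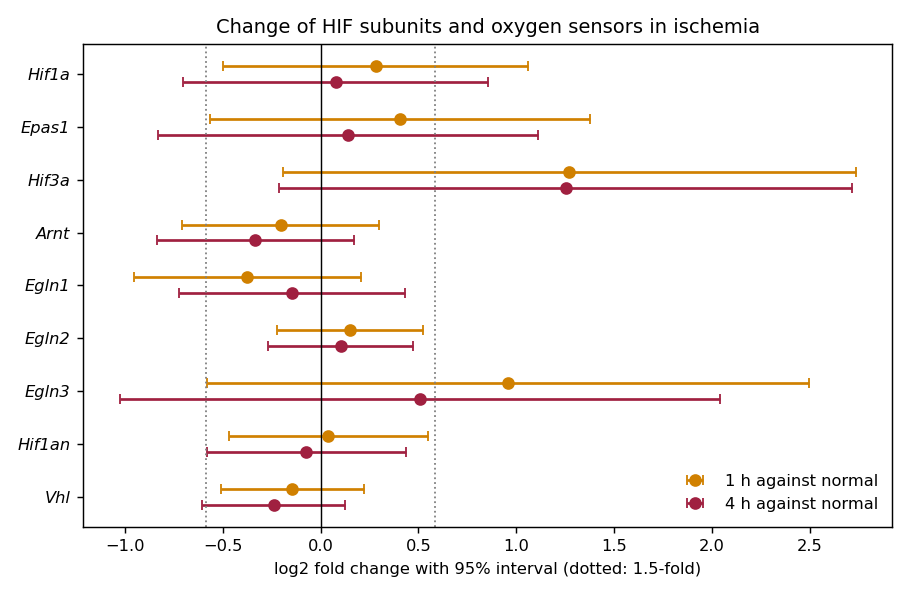
Log2 fold change of each gene at 1 h and 4 h against normal, with 95% intervals from the fit across all genes and dotted lines at 1.5-fold. All 18 intervals include 0, those of Egln2 and Hif1an stay within the dotted lines, and those of Hif3a and Egln3 are the widest.

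The 3 libraries with high Egln3 were also the 3 with the most RNA of sympathetic nerve. A nerve score, the mean log2 CPM of 18 sympathetic markers, was 7.93, 7.87 and 7.82 in these libraries and between -0.39 and 4.80 in the other 6. Among those 6, replicate 2 at 1 h had the highest score, yet its Egln3, 10.7 CPM, was below every normal library. The markers summed to 50.1 to 660 CPM in normal rats, 972 to 8880 CPM at 1 h and 59.5 to 8630 CPM at 4 h. Dbh, which makes noradrenaline from dopamine, was at 1854, 1866 and 2041 CPM in the 3 libraries with high Egln3. Normal replicates 1 to 3 had it at 116, 0 and 66.5 CPM. Replicate 2 at 1 h had it at 226 CPM, and replicates 1 and 2 at 4 h at 0.661 and 0.249 CPM. Egln1 ran the other way: its 3 lowest values, 33.8, 36.9 and 41.7 CPM, were in the same 3 libraries. The ratio of Egln3 to Egln1 counts was 1.16, 0.823 and 0.954 there and from 0.126 to 0.315 in the other 6. The same 3 libraries also had the highest adipocyte scores, 6.22, 6.52 and 5.54 against 3.53 to 5.31 in the other 6, and the part of fat in these values was not tested. These libraries were singled out after their values were seen, so no test of the difference is given.

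The nerve score was 4.80 to 7.93 at 1 h and -0.39 to 4.41 in normal rats. These ranges did not overlap, so a fit with the score cannot tell nerve RNA and 1 h of ischemia apart. When the nerve score entered the fit, Egln3 had a log2 fold change of -0.33 at 1 h (SE 0.47, adjusted p = 0.880) and 0.037 at 4 h (SE 0.37, adjusted p = 0.976). Without the 3 libraries it was -0.36 and -0.54 (adjusted p = 0.886 and 0.572), a fit in which only 1 library remained at 1 h and was assumed to vary like the others. Egln1 was at 0.024 at 1 h in that fit and at -0.27 with the score in the fit (adjusted p = 0.994 and 0.838). Hif3a was at 14.9 to 21.7 CPM in these libraries, and its log2 fold change was 2.20 at 1 h and 1.54 at 4 h with the covariate (adjusted p = 0.321 and 0.179). Without the 3 libraries it was 2.05 and 1.44 (adjusted p = 0.580 and 0.470).

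**Figure D4:**
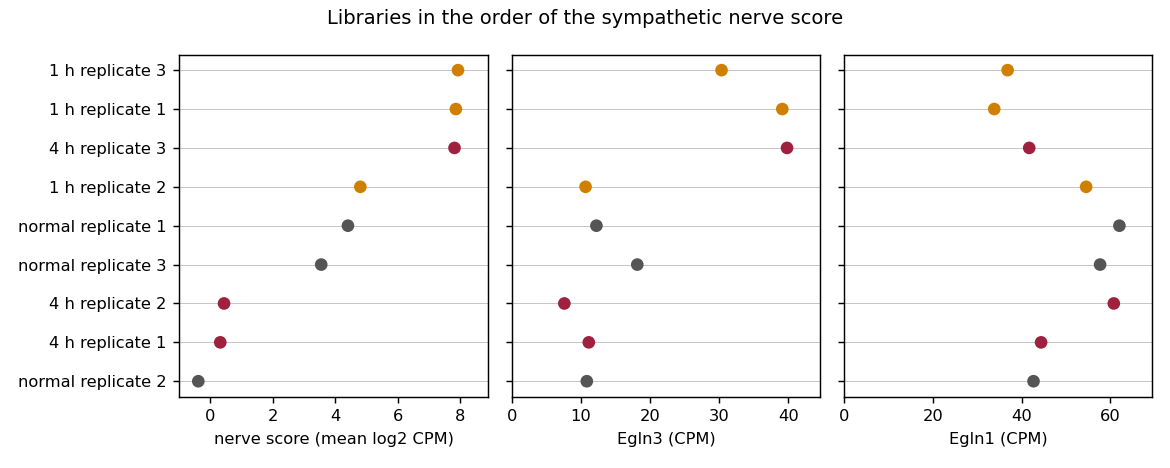
The 9 libraries in the order of their sympathetic nerve score (mean log2 CPM of 18 markers), with the CPM of Egln3 and Egln1 beside it and colours for the groups. The upper 3 libraries hold the highest Egln3 values, from 30.3 to 39.8 CPM, and the lowest Egln1 values, from 33.8 to 41.7 CPM.

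Hif1an codes for factor inhibiting HIF, the asparagine hydroxylase. It was at 7.89, 7.23 and 9.09 CPM in normal rats, 8.63, 7.95 and 8.29 CPM at 1 h, and 8.10, 6.30 and 8.58 CPM at 4 h, which is 76 to 141 counts per library. The 3 groups were interleaved. The fold change was 1.03 at 1 h (95% interval 0.723 to 1.46, adjusted p = 0.936) and 0.95 at 4 h (0.668 to 1.35, adjusted p = 0.915).

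Vhl, the recognition part of the ligase, was at 46.5, 34.5 and 38.3 CPM in normal rats, 34.2, 38.2 and 35.4 CPM at 1 h, and 32.9, 34.2 and 33.9 CPM at 4 h. The libraries at 4 h were all below the normal ones, although the lowest normal value and the highest at 4 h, 34.5 and 34.2 CPM, nearly touched. This was the only one of the 9 genes whose groups did not overlap at 4 h, and at 1 h there was none. Over all genes, groups did not overlap in 18.7% at 4 h, with 10.8% lower, and in 26.3% at 1 h. The fold change was 0.848 at 4 h (95% interval 0.658 to 1.09, adjusted p = 0.569) and 0.904 at 1 h (0.702 to 1.16, adjusted p = 0.631).

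Between 4 h and 1 h of ischemia 0 of the 9 genes were called, 0 had an unadjusted p under 0.05, and in 0 did the groups stand apart. Over all genes 0% were called by edgeR, 2.58% had an unadjusted p under 0.05 and 6.24% did not overlap. The smallest adjusted p among the 9 genes was 0.856, that of Egln1, which was 1.17-fold higher at 4 h with a 95% interval from 0.785 to 1.75. When the 3 groups were tested together, 0 of 9 genes were called, against 0.0388% of all genes, 0 had an unadjusted p under 0.05, against 11.4%, and their adjusted p ran from 0.529 for Hif3a to 0.929 for Hif1an. For each gene, then, no difference between neighbouring group means passed the test.

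The genes differed in how much they varied over the 9 libraries, a spread that includes differences between the groups. The SD of log2 CPM over the 9 libraries was 0.15 for Egln2, Vhl and Hif1an, and only 3.47% to 3.79% of 10447 genes averaging at least 5 CPM varied less. Arnt (0.27) and Egln1 (0.32) were also below the median of these genes, 0.40, whereas Hif1a (0.42) was close to it. Epas1 (0.52), Egln3 (0.89) and Hif3a (1.05) were above, and 84.4% and 88.5% of genes varied less than the last 2. Low variation thus included the ligase part and 2 hydroxylases, while the alpha subunits and Egln3 varied most.

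Genes with the most similar pattern were sought for each of the 9, by Pearson correlation of log2 CPM over the 9 libraries among 10446 genes. Because the highest values of so many are taken from libraries that share depth and tissue make-up, they are a description only. Closest to Egln3 were Ppp2r5b (0.99) and Sept6 (0.98), which were also highest in the 3 libraries with the most nerve RNA. Ppp2r5b was at 126, 101 and 113 CPM in these and at 29.9 to 52.0 CPM in the other 6. The closest to Epas1 were St6galnac2 and Sat1 (0.98 each), and Sat1 had its extremes in the same 2 libraries as Epas1, at 198 and 1028 CPM. Hif3a was closest to Hnrnpa1 and Btaf1 (0.97 each), Arnt to Mllt6 and Fryl (both 0.98), Egln1 to Wipf1 (0.97) and Tcf12 (0.95), and Vhl to Fam173a (0.97) and Gcnt1 (0.95). Lower values were found for Hif1a, with Rhoq (0.93) and Plekha3 (0.89), for Egln2, with Trmt6 (0.93) and Usp24 (0.91), and for Hif1an, with Ptgfrn (0.88) and Tmem229b (0.87).

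To place these genes in their pathway, other genes that act on HIF were counted, 25 in all and every one tested. They are dimer partners, coactivators, parts of the Vhl ligase, deubiquitinases and chaperones. By edgeR 0 of 25 were called at either time, while DESeq2 called 3 at 1 h and 4 at 4 h, beside its 4.53% and 3.94% of all genes. At an unadjusted p under 0.05, 6 were higher and 2 lower at 1 h (of all genes, 7.98% were higher and 8.67% lower), and 7 were higher and 1 lower at 4 h (5.07% and 7.35%). The counts of 8 at each time changed when single libraries were left out, and so did the share of all genes. With all 9 libraries that share was 16.7% at 1 h and 12.4% at 4 h. The 1 h count was 3 without normal replicate 2 (9.56% of all genes) and 3 without replicate 3 of the 1 h group (8.04%). It was 4 without replicate 1 of that group (11.3%) and 5 without replicate 1 of the 4 h group (18.3%). The 4 h count was 5 without normal replicate 1 (10.1%) and 5 without replicate 1 of the 4 h group (10.8%). The median log2 fold change was 0.19 at 1 h and 0.27 at 4 h, and it was 0.080 and 0.16 without normal replicate 1, 0.31 at 1 h on leaving out normal replicate 3, and 0.17 at 4 h on leaving out replicate 1 of the 4 h group.

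Groups did not overlap for 5 higher and 2 lower genes at 1 h (of all genes, 12.8% and 13.5%) and for 6 higher and 1 lower at 4 h (7.93% and 10.8%). Cul2, the scaffold of the Vhl ligase, was at 27.4, 27.9 and 30.7 CPM in normal rats, 59.7, 42.2 and 54.7 CPM at 1 h, and 45.5, 36.5 and 64.2 CPM at 4 h, so every ischemic library was above every normal one. Its 3 highest values, 59.7, 54.7 and 64.2 CPM, were in the 3 libraries of highest nerve score, and the part of nerve or fat in them was not tested. Its log2 fold change was 0.86 at 1 h (SE 0.24, adjusted p = 0.218) and 0.76 at 4 h (SE 0.24, adjusted p = 0.243). The other parts of that ligase, named after their values were seen, had log2 fold changes at 1 h of 0.26 for Tceb1 (SE 0.23), -0.33 for Tceb2 (SE 0.44) and 0.038 for Rbx1 (SE 0.16), and their groups overlapped. Ube2d3, a ubiquitin-conjugating enzyme, went from 171 ± 16.7 to 292 ± 60.4 CPM at 1 h and 272 ± 34.4 CPM at 4 h (SD, n = 3 each; edgeR adjusted p = 0.218 and 0.256). Ube2d1 and Ube2d2 of the same list, named afterwards, had log2 fold changes of 0.019 and 0.19 at 1 h. At 4 h these were -0.14 and 0.27, and their groups overlapped with normal at both times. Siah1 and Siah2, ligases that act on the prolyl hydroxylases, had log2 fold changes of 0.86 (SE 0.22) and 0.73 (SE 0.26) at 4 h, with adjusted p of 0.173 and 0.307. Hsp90aa1, a chaperone that holds HIF-1 alpha, had a log2 fold change of 1.53 (SE 0.53) at 1 h, with an adjusted p of 0.260. It too was highest in the 3 libraries of highest nerve score, at 52.5, 42.8 and 46.9 CPM, with replicate 1 at 4 h at 42.7 CPM.

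Arntl, the clock factor related to Arnt, had the smallest p of this list. It was at 32.3, 28.2 and 18.2 CPM in normal rats, 63.3, 58.8 and 53.9 CPM at 1 h, and 71.7, 65.5 and 61.3 CPM at 4 h (log2 fold change at 4 h 1.33, SE 0.22, edgeR adjusted p = 0.0712). With the nerve score in the edgeR fit the adjusted p of Arntl at 4 h was 0.0449. By DESeq2 it was 0.000116 at 1 h and 2.84e-06 at 4 h. Cited2, which competes with HIF for its coactivators and is itself a HIF target, was lower in every ischemic library. It was at 41.9, 52.1 and 52.4 CPM in normal rats, 23.1, 31.9 and 26.8 CPM at 1 h, and 10.8, 12.8 and 24.5 CPM at 4 h. Its log2 fold change was -1.60 at 4 h (SE 0.32, edgeR adjusted p = 0.10), and the adjusted p was 0.0412 without replicate 3 at 4 h and 0.0449 when the nerve score was in the fit. By DESeq2 the adjusted p of Cited2 at 4 h was 0.000683. The coactivators Crebbp and Ep300, also named afterwards, had log2 fold changes between -0.28 and -0.13 at the 2 times.

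Genes known to be induced through HIF were counted in the same way. Of 40 such genes 37 were tested, and Cited2 belongs to this list as well. Vegfa and Bnip3 are among the genes the study named on these samples, so their direction is not independent evidence. By edgeR 0 of 37 were called at 1 h or 4 h, while DESeq2 called 8 and 7, with 4.53% and 3.94% of all genes called by that tool. At an unadjusted p under 0.05, 12 of the 37 (32.4%) were higher at 1 h and 3 lower, against 7.98% and 8.67% of all genes, and at 4 h 8 (21.6%) were higher and 3 lower, against 5.07% and 7.35%. The median log2 fold change was 0.61 at 1 h and 0.41 at 4 h, beside -0.0076 and 0.027 over all genes. Adjusting for the nerve score, which was higher in every 1 h library than in every normal one, the median at 1 h was 0.32. Without the 3 libraries of highest nerve score, a fit that left 1 library at 1 h, the median at 1 h was 0.27. The 11 genes with an unadjusted p under 0.05 at 4 h became 7 when replicate 3 of the 4 h group was left out. In that fit 11.6% of all genes reached it at 4 h, beside 12.4% with all libraries.

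Hmox1, heme oxygenase, was at 4.26, 1.90 and 1.26 CPM in normal rats, 9.97, 35.4 and 22 CPM at 1 h, and 18.3, 10.9 and 9.64 CPM at 4 h (log2 fold change 3.17 at 1 h, SE 0.61, adjusted p = 0.145). Ddit4, an inhibitor of mTOR, was at 64.9, 29.7 and 67.2 CPM, then at 124, 277 and 190.3 CPM, and at 227, 380 and 185 CPM (log2 fold change 2.29 at 4 h, SE 0.45, adjusted p = 0.0981). Edn1, the vasoconstrictor endothelin, went from 8.56 ± 4.19 to 47.1 ± 18.2 CPM at 4 h (SD, n = 3 each; edgeR adjusted p = 0.118). Every ischemic library exceeded every normal one for these 3 genes. Of the 37 genes, groups did not overlap for 11 higher and 5 lower at 1 h (of all genes, 12.8% and 13.5%). At 4 h this held for 7 higher and 3 lower (7.93% and 10.8%).

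Adm, a vasodilator peptide, had a log2 fold change of 2.10 (SE 0.49) at 1 h, with an adjusted p of 0.188. At 4 h Adm was at 4.88 CPM in replicate 1, within the normal range of 3.40 to 4.98 CPM, and at 19.2 and 19.3 CPM in replicates 2 and 3. Vegfa was at 70.5 to 74.2 CPM in normal rats and at 93.6 to 223 CPM in the ischemic libraries, and Bnip3, which acts in mitophagy, at 40.0 to 74.0 and 75.6 to 227 CPM. Not all of the list was higher. Ankrd37, named here after its values were seen, had a log2 fold change of -2.0 at 1 h (SE 0.60, adjusted p = 0.232), while Slc2a1, Ndrg1 and P4ha1, likewise named afterwards, lay between -0.34 and 0.26 at both times.

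**Figure D5:**
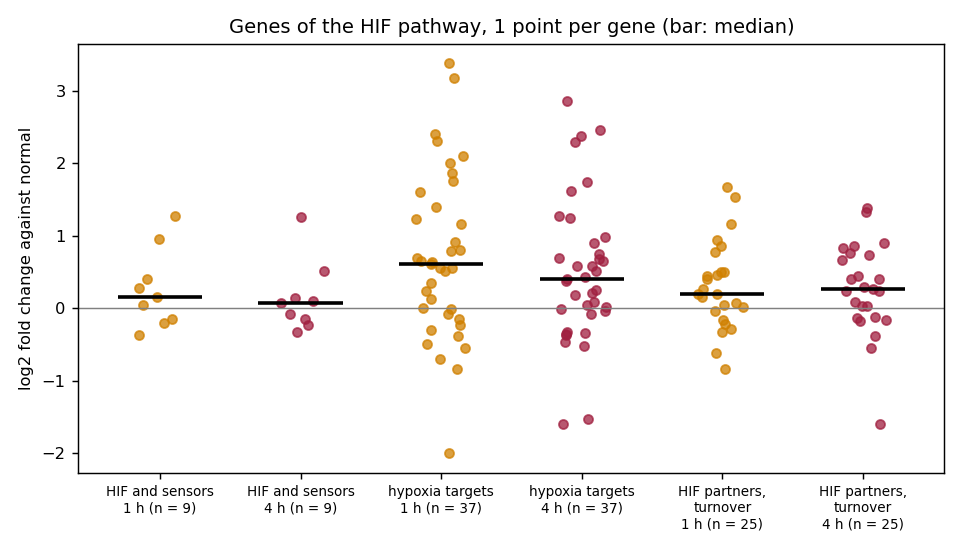
Log2 fold change against normal at 1 h and 4 h for the 9 HIF and sensor genes, 37 hypoxia targets and 25 genes of HIF partners and turnover, with 1 point per gene and a bar at the median. The 9 genes lie between -0.37 and 1.27, and the medians of the targets are 0.61 at 1 h and 0.41 at 4 h.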

How the data were processed

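RNA of the SMA was sequenced in 3 normal rats, 3 rats after 1 h and 3 rats after 4 h of ischemia. The authors deposited raw counts per gene symbol in 1 table, with a column for each library. HISAT2 is named in the submitters' processing notes, while the counting program, genome build, annotation and use of strand are not given in the sources used here. The study's methods describe microarrays for these samples, but the table holds whole-number counts and was tested as such. Totals ran from 13114273 to 15504240 counts, and every pair of libraries differed beyond counting noise (chi-square over its degrees of freedom at least 29.9).

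Genes were filtered with filterByExpr, scaled by TMM (factors 0.814 to 1.22) and tested in R 4.3.3 with edgeR 4.0.16 (glmQLFit and glmQLFTest) on all 9 libraries with group as the only term. The Benjamini-Hochberg adjustment ran over 15482 genes, and a call needed an adjusted p under 0.05 and a fold change over 1.5. SE is the change divided by the root of F, and 95% intervals use the degrees of freedom of the same test. Log2 CPM values carry a prior count of 2. DESeq2 1.42.0 and 16 further settings were tried, 1 of them added after seeing the data. The fit was tested on simulated data. Symbols and promoter windows came from RefSeq (GRCr8), whose coordinates say nothing of the build behind the counts.

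The 9 genes, the lists and the tests were chosen with earlier results of these data known. By rule, the text names the 9 genes, up to 8 genes per list with the smallest p, and the 2 genes most like each of the 9. Some genes that this rule names are not reported here. Marker lists for 9 sources (smooth muscle, endothelium, sympathetic nerve, Schwann cells, adipocytes, macrophages, lymphocytes, exocrine pancreas and red cell precursors) were summed per library. Beyond nerve and endothelium, the sums in normal rats, at 1 h and at 4 h were 11007 to 49025, 12767 to 47096 and 24325 to 69851 CPM for smooth muscle, 234 to 4060, 1420 to 2208 and 502 to 2020 CPM for Schwann cells, and 476 to 2431, 957 to 2370 and 476 to 1195 CPM for adipocytes. They were 54.7 to 224, 112 to 231 and 42.0 to 124 CPM for macrophages, 7.01 to 49.2, 7.95 to 52.2 and 4.71 to 9.45 CPM for lymphocytes, 15.5 to 63.3, 5.15 to 186 and 7.85 to 157 CPM for pancreas, and 49.1 to 210.3, 60.5 to 189 and 106 to 292 CPM for red cell precursors. Their part in the results was not tested.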

Additional observations from a re-analysis of the deposited data

How the results depend on the processing

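Under all 17 alternatives 0 of the 9 genes were called in any comparison. Without TMM scaling the median of all genes at 4 h was -0.15, and there the log2 fold changes at 4 h were -0.062 for Hif1a, -0.051 for Epas1 and -0.082 for Egln2, and the median of the genes of HIF partners and turnover was 0.12. With the nerve score as a covariate Egln3 was at -0.33 and Hif1an at -0.11 at 1 h, and between 4 h and 1 h they were at 0.37 and 0.024. Without the 3 libraries of highest nerve score, a set chosen after the values were seen, the values at 1 h were 0.20 for Arnt, 0.024 for Egln1, -0.36 for Egln3 and -0.011 for Hif1an, Egln3 was at -0.54 at 4 h, and Egln1 at -0.046 between 4 h and 1 h.

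Leaving out one library at a time gave at 1 h 0.024 to 0.68 for Hif1a, 0.062 to 0.83 for Epas1, 0.65 to 2.22 for Hif3a, -0.45 to -0.045 for Arnt, -0.62 to -0.24 for Egln1, 0.061 to 0.25 for Egln2, 0.58 to 1.33 for Egln3, -0.050 to 0.13 for Hif1an and -0.24 to -0.018 for Vhl, and at 4 h -0.18 to 0.48 for Hif1a, -0.081 to 0.57 for Epas1, 0.87 to 2.22 for Hif3a, -0.42 to -0.26 for Arnt, -0.33 to -0.037 for Egln1, 0.013 to 0.16 for Egln2, -0.55 to 0.89 for Egln3, -0.16 to 0.049 for Hif1an and -0.31 to -0.11 for Vhl. Between 4 h and 1 h it gave -0.39 to 0.0084 for Hif1a, -0.54 to 0.081 for Epas1, -0.32 to 0.60 for Hif3a, -0.29 to 0.12 for Arnt, -0.15 to 0.047 for Egln2 and -0.20 to 0.0099 for Hif1an. Egln1 was at 0.046 to 0.47, Vhl at -0.13 to -0.046 and Egln3 at -1.51 to -0.067. The value of -1.51 was found without replicate 3 at 4 h.

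DESeq2 called 8 hypoxia targets at 1 h and 7 at 4 h, and 3 and 4 genes of HIF partners and turnover, where edgeR called 0. With the nerve score the counts at 4 h were 1 and 2, and they ran from 0 to 1 for both lists when one library was left out, the 1 being Cited2 without replicate 3 at 4 h. The cause was not tested.

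Replicate numbers are shared between groups, but deviations of same-numbered libraries correlated from -0.65 to 0.66 over 9 pairs, and 4 of 9 libraries correlated best with their own number, so the numbers were not taken as pairs. With the replicate block 0 of the 9 genes were called, Hif3a was at 1.41 at 1 h and 1.60 at 4 h (adjusted p = 0.261 and 0.348), and between 4 h and 1 h it was at 0.19. Over all genes the block gave 7 calls at 1 h and 7 at 4 h, and 0 with the 3 groups together, where the fit without it gave 9, 14 and 6. DESeq2 gave 702, 610 and 669, the nerve score as a covariate 17, 122 and 28, and fits of only the groups compared 4 and 4. With the 3 groups together there were 11 without the filter on low counts and 0 without the 3 libraries of highest nerve score. Leaving out one library gave 0 to 11, 1 to 14 and 0 to 7, with 0 at 1 h without normal replicate 2 or 3.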
